A study of Mus musculus with 6 samples.

Results

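Collagen genes were examined in bulk RNA sequencing of mouse colon. The members were all protein-coding genes whose mouse symbol has the form of a collagen chain (Col, a type number, a, a chain number), matched by Ensembl ID to GENCODE release M21, with no threshold on their values. The deposited table held 41 of the 44 such genes among its 21374 genes: 11 fibrillar, 8 of the basement membrane (types IV, XV and XVIII) and 22 others. Col6a6, Col10a1 and Col19a1 were not analysed here. All 41 passed the filter for testing (a value of at least 1 in at least 3 libraries), Col9a1 only through the libraries labelled Otud1-/-.

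The samples were 6 libraries, 3 labelled wild type and 3 labelled Otud1-/-, all from C57BL/6 male mice. Every mouse had received azoxymethane, a carcinogen, at 6 weeks of age on day 0 and then 3 cycles of 1.5% dextran sulfate sodium (a detergent-like polymer that damages the gut lining) for 4 days followed by water for 14 days. On day 81, at an age of 18 weeks, the distal colon was removed, the tumours were cut away, and RNA came from the tissue beside them. Which part of Otud1 was deleted, and whether each library was a separate animal, is not stated, so a p-value here speaks only of the variation among libraries, part of which may be technical. Otud1 itself, a deubiquitinase gene, went against the labels: its normalised reads were 111, 45.1 and 48.9 in libraries with the wild type label and 141, 150 and 208 in those with the Otud1-/- label (limma, adjusted p = 0.0934). Directions are therefore between the libraries as labelled, and changes are Otud1-/- minus wild type by label. Libraries held 15300937 to 19406407 reads assigned to genes. On the first principal component wild type 1 (-86.5) and Otud1-/- 1 (83.3) stood apart from the other libraries (-25.8 to 28.2). All 12 epithelial markers listed were detected, with 296505 to 561519 normalised reads per library in sum.

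Collagens are secreted proteins whose chains wind into helices and form the scaffold of connective tissue. Fibrillar collagens (types I, III and V in soft tissue) build the fibrils of the submucosa, type IV forms the sheet of the basement membrane under epithelium and around vessels and muscle cells, and type VI makes beaded filaments around cells. Fibril-associated types such as IX, XII, XIV and XVI decorate fibrils. In the gut wall, fibroblasts and smooth muscle cells are the main makers of fibrillar chains.

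None of the 41 collagen genes was called between the labels (limma, Benjamini-Hochberg adjusted p under 0.05), against 0.949% of the 21281 genes tested, 0.282% higher and 0.667% lower. Col9a1, which passed the filter only through the libraries labelled Otud1-/-, had to differ by label, so it is set aside from the counts that follow. Among the other 40 members the lowest adjusted p was 0.078 (limma), that of Col9a3. At an unadjusted p under 0.05, 11 of the 40 were higher (27.5%) and 0 lower, against 9.50% and 9.97% of all genes tested. With a mean of at least 10, 10 of 33 members were higher and 0 lower, against 10.6% and 12.1% of all such genes. Without wild type 1 and Otud1-/- 1, 7 of the 40 were higher at that threshold, against 7.12% of all genes tested, and 1 was lower (Col17a1), against 6.70%. In 11 of the 40 members every library labelled Otud1-/- lay above every library labelled wild type, and in 0 below, against 13.0% and 13.3% of all genes tested. Of the 33 with a mean of at least 10 these were 10 and 0, against 14.1% and 15.7% of all such genes. The 11 were Col4a1, Col4a2, Col5a1, Col8a1, Col8a2, Col9a2, Col9a3, Col12a1, Col14a1, Col16a1 and Col20a1, all of them but Col5a1, Col4a1 and Col4a2 outside the fibrillar and basement membrane groups. The median change of the 40 was 0.23 on the log2 scale, 31 of them positive, against a median of 0.02 over all tested genes. The median over all 41 (0.27) rested in part on Otud1-/- 2, without which it was 0.06. In bulk tissue, more cells of a type and more RNA per cell cannot be told apart.

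Counts of called members depended on the test and the scaling. On reads recovered from the deposited values, DESeq2 called 2 of the 33 members to which it gave an adjusted p (Col9a3, adjusted p = 7.24e-06, and Col9a2, adjusted p = 0.0216), against 8.84% of all genes, and edgeR with TMM called 0 of 34, against 0.370%. Dividing by total reads shifted the all-gene median by 0.20 and called 3 of the 40 as higher (Col4a1, Col4a2 and Col5a1), and Col9a1 besides, against 1.47% of all genes. Scaling to the epithelial markers moved that median by 0.45 and called 9 of the 40 as higher, and Col9a1 besides, against 8.77% of all genes. At an unadjusted p under 0.05 it put 22 of the 40 higher, against 31.1% of all genes. Without wild type 1 and Otud1-/- 1 limma called Col9a3 (adjusted p = 0.00819), against 0.945% of all genes called higher. Lower collagens appeared at an unadjusted p under 0.05 with sample weights (1, Col18a1, against 10.7% of all genes lower) and without Otud1-/- 2 (4, Col3a1, Col6a4, Col6a5 and Col18a1, against 11.3%). Relative to the median of all genes, the change of Col4a1 was 0.52 on the deposited scaling, 0.53 with scaling to total reads and 0.54 with scaling to the epithelial markers. Each of these scalings applies one factor per library and moves nearly all genes alike. The closeness of these values is therefore fixed by the arithmetic and tests nothing.

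**Figure D1:**
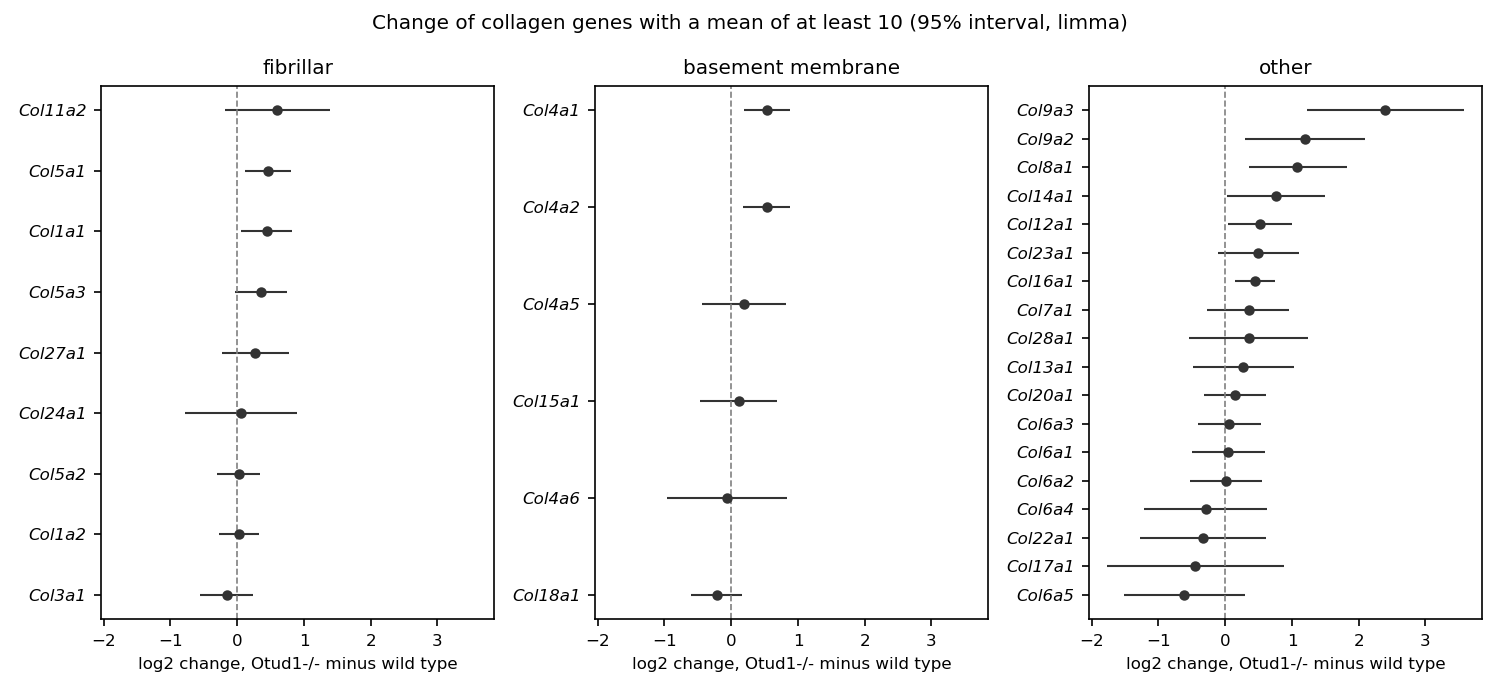
Log2 change (Otud1-/- minus wild type by label, x axis) of the 33 collagen genes with a mean of at least 10, in 3 groups, with points for limma's estimates and bars for their 95% intervals. Col9a3, at 2.40, lies farthest to the right, and 10 of the 33 intervals lie wholly above 0.

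Start site sequences from RefSeq (GRCm38.p6) are printed for some members, and any link between them and the values was not tested. They are the shared start of Col4a1 and Col4a2 and the promoters of the type IX chains Col9a1 and Col9a2. Those of the abundant fibrillar chains Col1a2 and Col3a1 are printed too. No promoter was found for Col9a3. Col4a1 and Col4a2 are head to head on chromosome 8 and their annotated starts, 11312826 on the minus strand and 11312805 on the plus strand, lie 21 bases apart. The 78 bases shared by both promoter windows (chr8:11312777-11312854, plus strand) are printed with the 22 bases between and including the starts in capitals.
Col4a1 and Col4a2: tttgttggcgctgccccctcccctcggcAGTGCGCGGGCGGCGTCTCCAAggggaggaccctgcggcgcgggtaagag
The other windows run from 250 bases before to 50 after the annotated start, on the plus strand (chr1:24177360-24177659, chr4:121039316-121039615, chr6:4505368-4505667 and chr1:45311288-45311587), with the matches of 3 motifs in capitals, searched on both strands: CCAAT, known from many promoters, the TATA box letters TATAAA, and the GC box letters GGGCGG.
Col9a1: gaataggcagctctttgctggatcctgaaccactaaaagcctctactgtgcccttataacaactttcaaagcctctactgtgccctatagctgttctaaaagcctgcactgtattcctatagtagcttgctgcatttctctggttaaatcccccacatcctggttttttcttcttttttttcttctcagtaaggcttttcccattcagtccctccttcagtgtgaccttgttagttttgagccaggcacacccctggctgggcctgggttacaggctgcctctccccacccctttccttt
Col9a2: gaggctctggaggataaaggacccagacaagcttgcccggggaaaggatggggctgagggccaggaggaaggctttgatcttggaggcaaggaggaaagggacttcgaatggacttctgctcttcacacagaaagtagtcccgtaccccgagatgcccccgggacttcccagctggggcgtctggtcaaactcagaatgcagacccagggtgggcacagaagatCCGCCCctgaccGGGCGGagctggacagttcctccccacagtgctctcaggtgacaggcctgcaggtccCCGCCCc
Col1a2: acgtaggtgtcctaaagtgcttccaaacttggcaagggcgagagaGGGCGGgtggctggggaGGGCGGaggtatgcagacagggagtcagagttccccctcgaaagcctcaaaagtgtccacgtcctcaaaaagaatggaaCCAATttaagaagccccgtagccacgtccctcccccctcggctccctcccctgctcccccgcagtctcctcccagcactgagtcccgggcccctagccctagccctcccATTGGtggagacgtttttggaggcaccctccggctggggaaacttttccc
Col3a1: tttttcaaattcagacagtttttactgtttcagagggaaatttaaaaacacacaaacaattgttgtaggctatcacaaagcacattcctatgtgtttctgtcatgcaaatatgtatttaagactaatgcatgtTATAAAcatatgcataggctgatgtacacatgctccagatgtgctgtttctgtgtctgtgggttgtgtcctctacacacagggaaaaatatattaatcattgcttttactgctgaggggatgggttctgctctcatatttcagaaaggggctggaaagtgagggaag
Promoters were found for 32 of the 41 members, counting the first listed start of each gene. That RefSeq start can differ from the GENCODE gene coordinates given elsewhere, as for Col1a2 (4505618 against 4504814) and Col9a2 (121039566 against 121039385). GGGCGG occurred in 21 of the 32 (65.6%), against 35.9% of 27025 promoters, CCAAT in 12 (37.5% against 37.9%) and TATAAA in 4 (12.5% against 14.2%). The 27025 were not filtered for protein-coding genes, as the members were, so the sets are not alike. None of these letters was in the Col9a1 window, and Col9a2 held GGGCGG at 3 places. These matches describe letters only.

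Levels per length were led by type III, VI, I and IV chains. As reads per kilobase of the longest protein-coding transcript (normalised read count, mean ± SD over all 6 libraries), Col3a1 stood at 1048 ± 188, Col6a1 at 531 ± 129, Col1a2 at 496 ± 53.1, Col4a1 at 420 ± 103, Col1a1 at 341 ± 81.6, Col4a2 at 315 ± 79.5, Col6a2 at 313 ± 75.4 and Col18a1 at 229 ± 39.2. The lowest library of Col3a1 (825) lay above the highest of Col6a1 (760), while from Col6a1 to Col6a2 each neighbour in the order lay within the spread of the next. The order of the last of these differed by label: Col6a2 (306 ± 25.9), Col1a1 (287 ± 36.0) and Col4a2 (257 ± 30.8) in libraries with the wild type label, but Col1a1 (394 ± 82.3), Col4a2 (373 ± 68.4) and Col6a2 (320 ± 116) in those with the Otud1-/- label (SD, n = 3). The order leans on the length used: per kilobase of all annotated exons, Col1a2 fell to 213, below Col4a1 (372), Col1a1 (308) and Col4a2 (307), with Col3a1 at 594 and Col6a1 at 497.

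Collagen genes took 0.123%, 0.147% and 0.126% of reads in libraries with the wild type label 1, 2 and 3 and 0.162%, 0.202% and 0.151% in those with the Otud1-/- label 1, 2 and 3, without overlap. Exact 95% binomial intervals for counting error were 0.122% to 0.125% for the lowest and 0.200% to 0.204% for the highest share. Between the labels the nearest libraries were wild type 2 (interval 0.145% to 0.149%) and Otud1-/- 3 (0.149% to 0.152%). Their intervals met, so counting error was not small beside that gap. On the deposited scaling the summed normalised reads overlapped, at 23412, 26819 and 24484 against 25117, 34763 and 24565, with Otud1-/- 2 far above the rest. The mix within collagen reads does not depend on scaling. Fibrillar chains made up 48.6%, 50.7% and 52.3% of collagen reads in libraries with the wild type label and 47.0%, 46.4% and 47.0% in those with the Otud1-/- label. Basement membrane chains made up 22.0%, 24.1% and 22.6% against 27.9%, 25.2% and 25.5%. The fibrillar part was thus lower and the basement membrane part higher in all 3 libraries labelled Otud1-/-. Otud1-/- 2 held the highest value of 19 of the 33 members with a mean of at least 10 (57.6%, against 15.2% of all such genes), wild type 1 the lowest of 13 (39.4%, against 20.9%) and Otud1-/- 1 the lowest of 12 (36.4%, against 26.2%).

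Among fibrillar genes, Col1a1 and Col5a1 were higher at an unadjusted p under 0.05 while their partner chains Col1a2 and Col5a2 stood near 0. Col1a1, the alpha 1 chain of type I collagen and the main protein of scar and tendon (chromosome 11, 94936224 to 94953042), had normalised read counts of 1502, 1682 and 1927 in libraries with the wild type label and 2498, 2727 and 1791 in those with the Otud1-/- label, so Otud1-/- 3 lay within the wild type range. Its log2 change was 0.44 ± 0.17 (SE, n = 3 per label; limma, adjusted p = 0.203). Col1a2, the alpha 2 chain of the same molecule (chromosome 6, 4504814 to 4541544), had 2486, 2823 and 2561 against 2438, 3151 and 2445. The labels overlapped, with a change of 0.02 and a 95% interval of -0.27 to 0.32.

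Col3a1, the type III chain that accompanies type I in distensible tissue (chromosome 1, 45311538 to 45349706), had 5331, 6863 and 6155 normalised reads in libraries with the wild type label against 4589, 7119 and 4923 in those with the Otud1-/- label. Its change was -0.16 (95% interval -0.56 to 0.24), with overlap, and its sign turned with the scaling (0.05 with total reads, 0.31 with the epithelial markers, 0.10 with quantile normalisation). Col5a1, a type V chain that sits in the core of type I fibrils (chromosome 2, 27886425 to 28039514), had 671, 735 and 770 against 893, 1241 and 889 (change 0.46 ± 0.15 SE; limma, adjusted p = 0.15). All 3 libraries labelled Otud1-/- were above the wild type range. Col5a2 had 896, 954 and 841 against 767, 1093 and 888 (change 0.02, 95% interval -0.31 to 0.34), and Col5a3 had 191, 218 and 271 against 301, 294 and 270 (change 0.36 ± 0.17 SE; limma, adjusted p = 0.296). The other fibrillar members with a mean of at least 10 were Col11a2 (0.60 ± 0.35 SE), Col27a1 (0.27 ± 0.22 SE) and Col24a1 (0.05 ± 0.37 SE), none of them past the test. Over the 11 fibrillar genes the median change was 0.27, with 9 positive, and it was 0.04 without Otud1-/- 2 and 0.14 without Otud1-/- 1.

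Ratios between chains within a library are free of scaling, and 8 pairs of chains were compared. Of these, Col1a1/Col3a1 sets a type I chain against the type III chain, and the others pair chains of the same type. The ratio Col1a1/Col3a1 was 0.282, 0.245 and 0.313 in libraries with the wild type label and 0.544, 0.383 and 0.364 in those with the Otud1-/- label, a difference of 0.60 in mean log2 ratio. Col5a1/Col5a2 was 0.749, 0.77 and 0.915 against 1.16, 1.13 and 1, a difference of 0.44. In both pairs the labels did not overlap. Each gave an exact two-sided permutation p of 0.1, the smallest that 3 against 3 libraries allow, and 0.4 after Benjamini-Hochberg adjustment over the 8 pairs. Col1a1/Col1a2 was 0.604, 0.596 and 0.752 against 1.02, 0.865 and 0.733, which overlapped (difference 0.42, exact permutation p = 0.2). Transcripts of Col1a1 and Col5a1 are richer in G and C (58.9% and 58%) than those of Col1a2, Col3a1 and Col5a2 (55.7%, 52.5% and 49.6%). Over all protein-coding genes with a mean of at least 10, the median change by G and C content lay between -0.02 and 0.03 from the lowest content up to 62%, and at 0.12 above it. Such medians do not show single libraries, and any part of G and C content in the ratios was not tested.

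**Figure D2:**
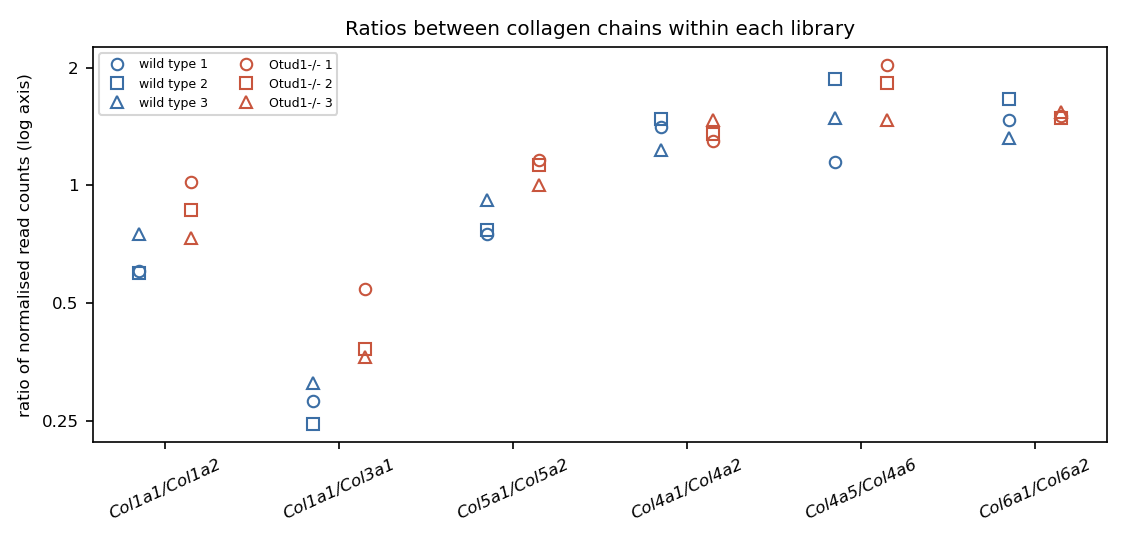
Ratio of normalised read counts between pairs of collagen chains in each library (y axis, log scale), blue for the 3 libraries labelled wild type and red for the 3 labelled Otud1-/-, with symbols for the replicate number. Col1a1/Col3a1 and Col5a1/Col5a2 separate the labels, and Col4a1/Col4a2 stays between 1.23 and 1.48 in all 6 libraries.

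Of the basement membrane genes, Col4a1 and Col4a2 were higher together at an unadjusted p under 0.05, and the remaining members spread around 0. These chains form the common type IV molecule of basement membranes throughout the body. Col4a1 (chromosome 8, 11198423 to 11312826) had 2025, 2703 and 2083 normalised reads in libraries with the wild type label and 3151, 3840 and 2879 in those with the Otud1-/- label (change 0.54 ± 0.15 SE; limma, adjusted p = 0.114). Col4a2 (chromosome 8, 11312805 to 11449287) had 1441, 1832 and 1695 against 2430, 2837 and 1956 (change 0.53 ± 0.16 SE; limma, adjusted p = 0.121). In both genes the labels did not overlap, with the narrowest gap between wild type 2 and Otud1-/- 3. Over the alternatives the adjusted p ran from 0.00477 to 0.325 for Col4a1 and from 0.00582 to 0.341 for Col4a2, both lowest with scaling to the epithelial markers. Their ratio differed between the labels by 0.01 in mean log2 ratio (exact permutation p = 1.0).

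The other basement membrane chains did not pass the test. Col18a1, whose cleaved end is endostatin (chromosome 10, 77052178 to 77166548), had 1250, 1524 and 1332 against 1117, 1500 and 959 (change -0.22 ± 0.17 SE; limma, adjusted p = 0.503). The labels overlapped, Otud1-/- 3 was lowest, and the sign turned to 0.25 with scaling to the epithelial markers. Col15a1, its relative in vessel and muscle basement membranes, had 223, 274 and 283 against 196, 405 and 271 (change 0.11), with Otud1-/- 2 highest and Otud1-/- 1 lowest. Col4a5 and Col4a6, head-to-head genes on the X chromosome whose chains assemble together in smooth muscle basement membranes, had changes of 0.19 and -0.06. Col4a5 had 103, 79.0 and 68.3 against 67.4, 109 and 113. Col4a6 had 89.7, 42.3 and 45.9 against 33.3, 59.6 and 76.7, so that wild type 1 was the highest library and Otud1-/- 1 the lowest. Over the 8 genes of the group the median change was 0.06, with 5 positive. It was 0.31 without Otud1-/- 1, -0.12 without Otud1-/- 2, 0.24 without Otud1-/- 3, 0.17 without wild type 1 and 0.02 without wild type 2.

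**Figure D3:**
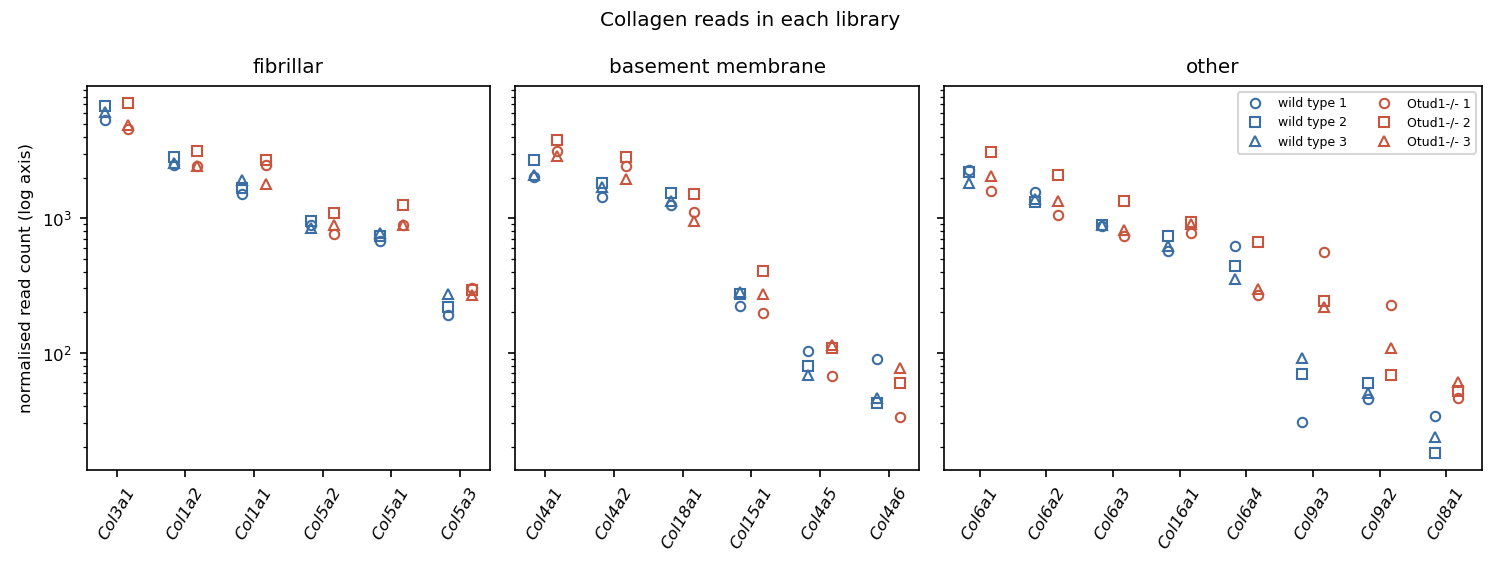
Normalised read counts (y axis, log scale) of the leading collagen genes in each of the 6 libraries, blue for those labelled wild type and red for those labelled Otud1-/-. Points of Col4a1, Col4a2, Col5a1, Col16a1, Col9a3, Col9a2 and Col8a1 do not overlap between the labels, while those of Col3a1, Col1a2 and the type VI chains do.

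Among the remaining collagens, the type IX chains Col9a2 and Col9a3 lay above the wild type range in all 3 libraries labelled Otud1-/-, with fitted changes of 1.20 and 2.40. Type IX decorates type II fibrils and is best known from cartilage. Col9a3 (chromosome 2, 180597790 to 180622189) had 30.6, 68.7 and 91.8 normalised reads in libraries with the wild type label and 559, 243 and 217 in those with the Otud1-/- label. The labels did not overlap, with Otud1-/- 1 highest and wild type 1 lowest of all. Its change was 2.40 ± 0.50 SE (limma, adjusted p = 0.078; 7.24e-06 to 0.259 over the alternatives). Without wild type 1 and Otud1-/- 1 the change was 1.52. Its exons overlap Tcfl5 on the opposite strand over 234 bases, and as the strand setting of the counting is not given, reads there cannot be told apart.

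Col9a2 (chromosome 4, 121039385 to 121055322) had 45.4, 59.3 and 50 against 224, 68.6 and 109 (change 1.20 ± 0.40 SE; limma, adjusted p = 0.154). Otud1-/- 2 lay close to the wild type range, and the change was 0.75 without Otud1-/- 1. Col9a1 had 1 read over the libraries labelled wild type (0, 1 and 0) and 30 over those labelled Otud1-/- (18, 6 and 6), a ratio of 29.4 after scaling with an exact 95% counting interval of 4.89 to 1200. This describes the reads and is no test, since the gene passed the filter only through the label in which it was high. Its fitted change of 2.95 depended on the pseudocount and was 5.31 with 0.1 in place of 1. Col2a1, the type II chain that carries type IX in cartilage, was at 0, 0 and 4.08 against 5.97, 0 and 2.02.

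Type VI chains overlapped between the labels and followed one order over the libraries labelled Otud1-/-. Col6a1 (chromosome 10, 76708792 to 76726168) had 2292, 2199 and 1833 in libraries with the wild type label against 1577, 3116 and 2050. Its partners followed the same order in the libraries labelled Otud1-/-, Col6a2 with 1559, 1326 and 1390 against 1050, 2090 and 1329 and Col6a3 with 873, 894 and 891 against 730, 1331 and 820. For all 3, Otud1-/- 2 was the highest library and Otud1-/- 1 the lowest. Changes were 0.04 (95% interval -0.50 to 0.59), 0.01 (-0.53 to 0.55) and 0.06 (-0.41 to 0.53). The later-described chains Col6a4 (-0.29 ± 0.38 SE) and Col6a5 (-0.62 ± 0.39 SE) had negative changes that did not pass the test. Col6a4 had 624, 439 and 351 against 270, 660 and 297, and Col6a5 194, 177 and 118 against 62.3, 188 and 94.9.

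**Figure D4:**
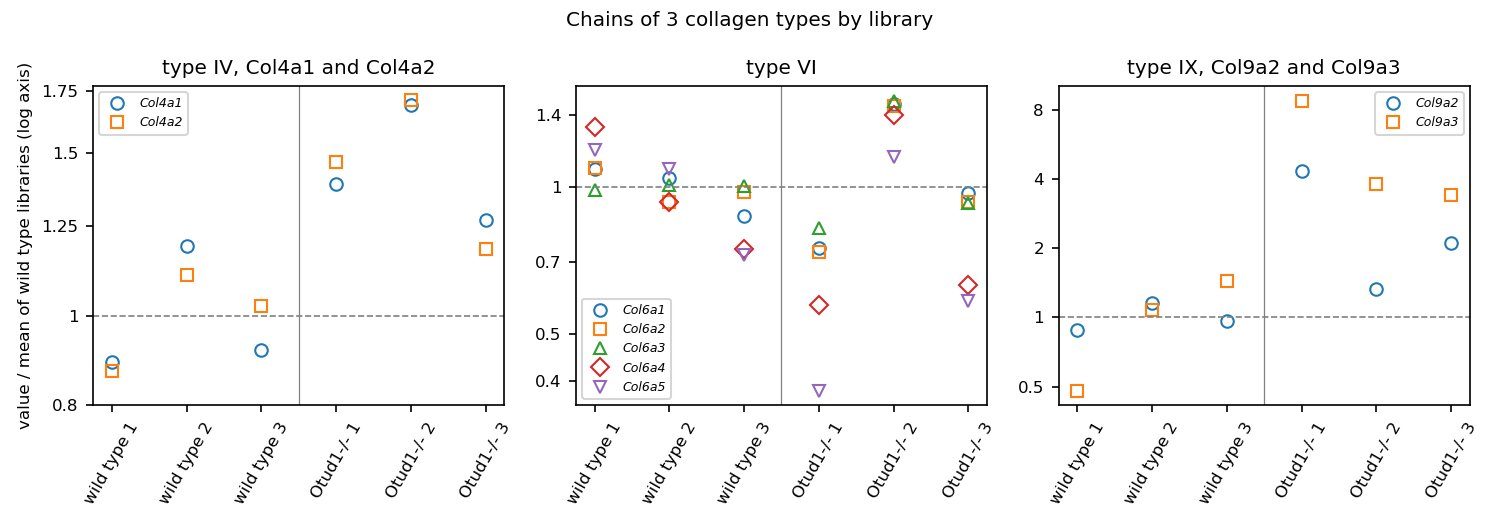
Values of Col4a1 and Col4a2 (type IV), the type VI chains, and Col9a2 and Col9a3 (type IX) in each library divided by the mean of the 3 libraries labelled wild type (y axis, log scale; dashed line at 1). The type IV and IX chains drawn lie above 1 in all 3 libraries labelled Otud1-/-, while type VI chains are low in Otud1-/- 1 and high in Otud1-/- 2.

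Of the fibril-associated chains, Col16a1 had 567, 740 and 621 against 777, 937 and 905 (change 0.45 ± 0.14 SE; limma, adjusted p = 0.134), without overlap. Col12a1 (0.52 ± 0.21 SE) and Col14a1 (0.76 ± 0.32 SE) did not overlap either. Col12a1 had 251, 387 and 391 against 457, 601 and 410, and Col14a1 33.8, 24.5 and 38.7 against 72.5, 41.6 and 53.5. Col20a1 had 83.3, 90.3 and 89.7 against 91.3, 95.6 and 105, apart but by little (0.15 ± 0.21 SE), and Col22a1 stood at -0.34 ± 0.42 SE. Both chains of type VIII, a short-chain network collagen of vessel walls, were above the wild type range: Col8a1 had 33.8, 17.9 and 23.5 against 46.1, 51.7 and 60.5 (change 1.08 ± 0.33 SE; limma, adjusted p = 0.126). Col7a1, the anchoring fibril chain, had a difference of 0.35 ± 0.27 SE, and the transmembrane chains Col23a1, Col13a1 and Col17a1 had differences of 0.49 ± 0.27 SE, 0.27 ± 0.34 SE and -0.45 ± 0.59 SE. Col28a1 stood at 0.35 ± 0.40 SE. None of these passed the test. The 22 genes of the group, Col9a1 included, had a median of 0.35, 18 of them positive. That median was 0.18 without Otud1-/- 2. The 18 genes with a mean of at least 10, which leave out Col9a1, had a median of 0.31, 14 of them positive.

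Another 8 members had a mean under 10 and are given apart: Col2a1, Col4a3, Col4a4, Col8a2, Col9a1, Col11a1, Col25a1 and Col26a1. They held between 0 and 18 reads in a library, so their changes rest on few reads. Beside Col9a1, Col8a2 alone did not overlap between the labels, with 2.11, 6.58 and 5.10 against 8.53, 11.2 and 14.1. Col4a3 and Col4a4, the type IV chains of kidney filter, lung and inner ear, were at 6.33, 4.70 and 6.12 against 11.9, 6.75 and 2.02 and at 5.27, 5.64 and 9.18 against 9.39, 7.87 and 2.02. Col11a1, Col25a1 and Col26a1 ranged from 0 to 13.5, with overlap.

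Marker lists of other cell types are given beside the collagens, and their part in the collagen values was not tested. Over all genes tested, 9.50% were higher at an unadjusted p under 0.05, 0.282% were called higher and 0.667% lower (limma). All 12 smooth muscle markers were higher at an unadjusted p under 0.05 and 4 were called higher (limma, adjusted p from 0.044 to 0.0492), with a summed level of 38920 to 43073 normalised reads in libraries with the wild type label and 64099 to 130761 in those with the Otud1-/- label. Myl9 had 2650, 3150 and 2715 against 4783, 8817 and 7074, and Synm 1339, 1397 and 1242 against 2319, 4474 and 3492. Cald1 had 1669, 2236 and 1863 against 2852, 4153 and 3786, and Myh11, the smooth muscle myosin, 7100, 9529 and 6718 against 13355, 23866 and 21179. Of 15 fibroblast markers 10 had positive and 5 negative changes (median 0.38), with 1 called higher and 1 lower. Grem1, a BMP antagonist, was the higher one (567, 685 and 535 against 1144, 1739 and 1915; limma, adjusted p = 0.0262). Ly6a, which other cells also express, was the lower one (28939, 28316 and 33792 against 12127, 14490 and 17473; limma, adjusted p = 0.0292). Vim, with the next smallest p, stood at 0.72, and Pdgfra (-0.20), Clec3b (-0.31), Mfap5 (-0.48) and Thy1 (-0.02) had negative changes that did not pass. The fibroblast sum was 35170 to 40638 against 23497 to 27099, most of it Ly6a, and 6231 to 7734 against 9625 to 11370 without that gene, chosen after its values were seen. Of 8 pericyte markers 6 had positive changes and 0 were called (sum 1998 to 2661 against 3663 to 5420), led by Rgs5 (1.27), Cspg4 (1.19) and Abcc9 (0.64), with Pdgfrb at -0.15. Of 12 epithelial markers 11 had negative changes and 0 were called (sum 473898 to 561519 against 296505 to 446317), led by Elf3 (-0.60), Lgals4 (-0.68) and Cldn7 (-0.56). Endothelial markers had a median change of 0.28 (0 of 10 called, sum 2006 to 2625 against 2153 to 3188), led by Esam (0.52), Vwf (0.57) and Cldn5 (0.79). Of the 10, 8 had positive and 2 negative changes (Pecam1 at -0.23 and Kdr at -0.03). Glial markers had a median of 0.52 (0 of 6, 164 to 211 against 189 to 331), with Cdh19 at 0.80 and Gfap at 0.45. Leukocyte markers had a median of -0.82 (0 of 9, 26423 to 47400 against 15299 to 26761), led by Itgam (-1.24), Lyz2 (-0.75) and Csf1r (-0.82). Mesothelial markers stood at 0.02 (0 of 6, 178 to 233 against 192 to 549), with Msln at 0.64, Upk1b at -0.34 and Lrrn4 at 0.64. Adipocyte markers stood at -0.08 (0 of 3 tested, 1253 to 1657 against 871 to 1863), with Fabp4 at -0.08, Cidec at -0.15 and Pparg at -0.08; Adipoq, Plin1 and Lep were not analysed here. Of 5 skeletal muscle markers tested (sum 176 to 208 against 199 to 368), Ckm was called higher (41.1, 38.6 and 32.6 against 98.1, 162 and 102) and Myot lower (65.4, 97.8 and 103 against 11.9, 4.5 and 8.07), and Myh2 stood at 1.68.

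Of 24 genes for chain modification and folding, 0 were called, 13 had positive changes and the median was 0.14. The 3 genes with the smallest p lay below the wild type range without passing the test: Sec23a, of the coat that carries procollagen out of the endoplasmic reticulum (-0.59), P4ha1, the proline hydroxylase subunit (651, 715 and 589 against 385, 533 and 395, change -0.59 ± 0.16 SE; limma, adjusted p = 0.104), and its partner P4hb (-0.46). Of 15 genes for procollagen cleavage and crosslinking tested, 0 were called, with a median of 0.05; Bmp1, the C-propeptide protease, had 285, 369 and 346 against 600, 546 and 379 (change 0.59 ± 0.19 SE; limma, adjusted p = 0.15), the transglutaminase gene Tgm2 stood at -0.70 and the meprin gene Mep1b at -1.31.

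Of 10 collagen-binding matrix genes, 9 had positive changes (median 0.49) and 1 was called, against 0.949% of all genes tested. Prelp, a leucine-rich proteoglycan that tethers basement membrane to collagen, was the called gene and was higher by label Otud1-/-. It had 409, 473 and 450 against 695, 768 and 784 (change 0.75 ± 0.12 SE, limma, adjusted p = 0.0338). Aspn (1.02) and Ogn (0.72) of the same family lay above the wild type range without passing the test. Of 10 collagen receptors 0 were called (median 0.17). The collagen-binding integrin chains Itga1 (0.64 ± 0.18 SE) and Itgb1 (0.29 ± 0.12 SE) lay above and the inhibitory leukocyte receptor Lair1 (-0.60 ± 0.23 SE) below the wild type range. Of 16 TGF-beta ligands, receptors, binding proteins and SMADs 0 were called (median -0.01). Tgfb3 had 63.3, 57.4 and 41.8 against 108, 115 and 102 (change 1.01 ± 0.25 SE; limma, adjusted p = 0.0858), while the signal transducers Smad2 (-0.37) and Smad4 (-0.47) lay below the wild type range. Of 15 laminins, nidogens and proteoglycans that share the basement membrane with type IV, 0 were called (median 0.01). Lamb2 had 417, 495 and 501 against 1112, 880 and 670 (0.89 ± 0.18 SE; limma, adjusted p = 0.0588), the perlecan gene Hspg2 1145, 1400 and 1095 against 1633, 1840 and 1688 (0.51 ± 0.12 SE; limma, adjusted p = 0.0858), and Lamc1 stood at 0.33.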

How the data were processed

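Bulk RNA was sequenced from 6 libraries of tumour-adjacent distal colon, grouped by the genotype label. The authors deposited one normalised signal value per gene and library, in which every value of a column was a whole multiple of one step (100% of values within 0.001 of a read), so whole reads could be recovered. The submitters' processing notes name mm10 as the build. Not given in the sources used here are the annotation release, the strand setting, the counter and the aligner. Of the IDs, 21317 matched GENCODE M21 and 57 did not.

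Tests used limma 3.58.1 (R 4.3.3; trend and robust) on log2 of the value plus a pseudocount of 1, over 21281 genes, two-sided, with Benjamini-Hochberg adjustment over all of them and a call at an adjusted p under 0.05. On this scale the change of a gene with low values is understated. Errors are SDs over libraries for levels and limma standard errors for changes. edgeR 4.0.16 (quasi-likelihood) and DESeq2 1.42.0 were run on recovered reads as alternatives. The script was tested on simulated data. Chain ratios had exact permutation tests. The members and gene lists were chosen with earlier results of these data known. Values in every library are given for each group's 5 members with the highest mean and 3 with the smallest p among those with a mean of at least 10, and for partner chains. From the other lists the called genes and the 3 with the smallest p are named, by library or by change, except 1 gene that is not reported here. Values by library of further members were added after they were seen.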

Additional observations from a re-analysis of the deposited data

How the results depend on the processing

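With 3 libraries per label only large changes can be called, and genes with few reads rest on counting error. No collagen was called lower under any alternative run. Against 202 genes called, DESeq2 called 1413, edgeR 62 with TMM and 62 with median-of-ratios factors, a filter at a mean of 5 called 122, limma without trend and robust 0, a pseudocount of 0.1 118, sample weights 564, scaling to the epithelial markers 1968, scaling to total reads 416, and the set without wild type 1 and Otud1-/- 1 393; leaving out one library gave 10 to 351. Collagens called higher (0) became 2 of 33 with DESeq2, which called 8.84% of all genes in either direction. They became 10 with the epithelial markers and 4 with total reads, Col9a1 included in both, against 8.77% and 1.47% of all genes. Without wild type 1 and Otud1-/- 1 there was 1, against 0.945% of all genes. Collagens higher at an unadjusted p under 0.05 (12, Col9a1 included) became 23 with the epithelial markers, which put 31.1% of all genes higher. Those lower (0) became 1 with sample weights (Col18a1; 10.7% of all genes lower), 1 without wild type 1 and Otud1-/- 1 (Col17a1; 6.70%) and 0 to 4 with one library left out, the 4 without Otud1-/- 2 (Col3a1, Col6a4, Col6a5 and Col18a1; 11.3%). The fibrillar median (0.27) was 0.74 with the epithelial markers, 0.48 with total reads and 0.04 to 0.34 with one library left out. The basement membrane median (0.06) was 0.49 with the epithelial markers, 0.33 without wild type 1 and Otud1-/- 1 and -0.12 to 0.31 with one library left out. The median of the others (0.35, Col9a1 included) was 0.20 with quantile normalisation, 0.81 with the epithelial markers, 0.55 with total reads and 0.18 to 0.51 with one library left out. The median of all 41 (0.27) was 0.73 with the epithelial markers, 0.48 with total reads and 0.06 to 0.34 with one library left out. Signs turned, for changes that were not called, in these cases. With the epithelial markers, Col18a1 was 0.25, Col3a1 0.31, Col4a4 0.20, Col4a6 0.40 and Col6a4 0.18. With total reads, Col3a1 was 0.05 and Col4a6 0.14. With quantile normalisation, Col3a1 was 0.10 and Col4a3 -0.20. With sample weights, Col1a2 was -0.04, Col4a3 -0.47, Col4a6 0.23 and Col6a2 -0.00. With a pseudocount of 0.1, Col4a3 was -0.05. Without wild type 1 and Otud1-/- 1, Col4a3 was -0.40, Col4a6 0.61 and Col6a4 0.17. With one library left out, Col15a1 ran from -0.16 to 0.36, Col1a2 from -0.10 to 0.08, Col4a3 from -0.46 to 0.59, Col4a4 from -0.54 to 0.35, Col4a6 from -0.32 to 0.27, Col5a2 from -0.12 to 0.14, Col6a1 from -0.22 to 0.27, Col6a2 from -0.27 to 0.23 and Col6a3 from -0.20 to 0.24. The log2 ratios ran from -0.07 to 0.06 for Col4a1/Col4a2, -0.05 to 0.12 for Col6a1/Col6a2 and -0.60 to 0.49 for Col8a1/Col8a2. Apart from the scalings, whose shift of all genes is known, the cause was not tested. Of 447 single-gene values under alternatives, 395 kept their sign and side of the threshold, 16 passed it, 36 turned sign and 0 lost a call. Whether the replicate numbers pair the samples was not settled. Correlations of same-numbered deviations were -0.264, -0.100 and -0.088, but deviations from the mean of so few libraries depend on each other and cannot decide it. With a replicate block 18 genes were called, 0 of them collagens.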

Other observations

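Of 8 genes outside the collagen lists, chosen after their values were seen, 6 had the same lowest library (wild type 1) and highest library (Otud1-/- 1) as Col9a3. Among all tested genes with a mean of at least 10, Otud1-/- 1 was highest in 25.9% and wild type 1 lowest in 20.9%. The share of genes with both at once was not computed. These libraries were the opposite extremes of the first principal component (-86.5 for wild type 1 and 83.3 for Otud1-/- 1). Because of how the 8 were chosen, their count is a description only. Lgr5, a stem cell receptor of the crypt, had 3.16, 156 and 135 normalised reads in libraries with the wild type label and 1051, 279 and 318 in those with the Otud1-/- label. Notum, a secreted Wnt inhibitor, had 5.27, 419 and 360 against 2927, 1156 and 780. Axin2, a Wnt target gene, had 189, 855 and 522 against 3649, 1394 and 935. Sox6, a cartilage transcription factor gene, had 45.4, 95.9 and 77.5 against 293, 123 and 96.9. Smoc2 had 189, 535 and 566 against 2865, 973 and 1218, and Sox9 397, 514 and 487 against 1027, 526 and 727. Of the other cartilage genes looked at, Sox5 did not share the pattern (15.8, 27.3 and 36.7 against 23.9, 29.2 and 32.3), nor did Comp in its lowest library (5.27, 9.40 and 14.3 against 18.8, 12.4 and 3.03). None of the 8 was called (limma, lowest adjusted p = 0.183). What these genes share with Col9a3 was not tested.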
